A study of Mus musculus with 7 samples.

Results

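The RNA-seq data were examined for Trp53, the gene of the tumor suppressor p53, for its regulators Mdm2 and Mdm4, and for 7 direct p53 target genes that belong neither to the BCL2 family nor to the CDK inhibitor family, namely Ccng1, Sesn2, Phlda3, Zmat3, Eda2r, Trp53inp1 and Perp. The 10 genes were chosen by symbol, and all 10 were among the 24341 genes of the expression table. Of these, 8 passed the filter on low values and were tested, and Eda2r and Perp did not pass. RNA came from B-cell precursor (BCP) cells sorted out of splenocytes of Eμ-Ret mice, in which a Ret fusion oncogene is placed under the immunoglobulin heavy chain enhancer and is thus active in B-lineage cells. All mice were Emu-Ret hemizygotes on a BALB/c background, so the transgene was shared by both groups, and no sample from mice lacking it is part of the comparison. The preleukemic group held 4 samples from young, healthy mice, and the leukemic group held 3 samples from older moribund mice with overt disease. The labels name a sort for both groups. The gate B220int/CD43int/BP-1hi is given in the methods for preleukemic cells, and for other experiments of the study leukemic spleen cells were mostly used without enrichment, so the gate may have differed between the groups. Each sample is taken as 1 mouse from the number of mice that the design names, and age and disease differed together between the groups and cannot be told apart.

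p53 is a transcription factor that is kept at a low protein level by Mdm2, a ubiquitin ligase that marks it for degradation, and by Mdm4, a relative of Mdm2 that binds p53 and blocks its activity. Mdm2 is itself transcribed by p53, which closes a negative feedback loop. In B-cell precursors, which cut and rejoin their DNA at the immunoglobulin genes and divide rapidly, p53 responds to DNA breaks and to oncogene activity by stopping the cell cycle, aiding repair or triggering cell death. Because p53 is controlled mainly as a protein, the mRNA values below describe transcripts and not p53 activity.

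To show where p53 could meet these genes, 300-base promoter windows from RefSeq (GRCm38.p6, from 250 bases before to 50 bases after the annotated start) were searched on both strands for the p53 half-site pair, the known decamer repeat bound by p53, with a spacer of 0 to 13 bases between the half-sites. Windows were at hand for 7 of the 10 genes (all but Zmat3, Trp53inp1 and Perp). A pair with at most 1 mismatch was found in 1 of them, Ccng1, and in 359 of the 32851 windows of the whole table (1.09%). The search was extended to 48 other p53 target genes described below, of which 40 had a window and 4 held such a pair (Bax, Cdkn1a, Polk and Rps27l). The Ccng1 stretch is shown because it is the only one of the 7 genes searched with such a pair in its window. Those of Cdkn1a and Bax are shown because their expression is given sample by sample later. The capitals mark the half-sites.
Ccng1 promoter, minus strand, chr11:40755402-40755521: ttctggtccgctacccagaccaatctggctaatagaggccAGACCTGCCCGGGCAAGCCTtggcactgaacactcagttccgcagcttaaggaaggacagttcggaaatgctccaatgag
Cdkn1a promoter, plus strand, chr17:29090859-29090978: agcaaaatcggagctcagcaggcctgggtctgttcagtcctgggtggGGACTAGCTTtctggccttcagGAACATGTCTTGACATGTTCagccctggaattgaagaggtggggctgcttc
Bax promoter, minus strand, chr7:45467029-45467148: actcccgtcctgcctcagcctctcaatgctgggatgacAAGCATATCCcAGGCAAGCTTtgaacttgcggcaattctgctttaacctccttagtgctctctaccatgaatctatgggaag
The Ccng1 pair starts at position -195 from the annotated start, has no spacer and has 1 mismatch. The Cdkn1a stretch holds 2 overlapping pairs, of which one has 0 mismatches and a spacer of 12 bases, a match found in 24 windows of the whole table (0.0731%). Cdkn1a had 2 windows, and the closest pair in the window not shown (chr17:29093519-29093818) had 5 mismatches. The Bax pair has 1 mismatch and a spacer of 1 base. The closest pair in the Trp53 window had 3 mismatches, as did 1 of the Mdm4 windows, and a pair at least that close was present in 45.1% of all windows. The windows of Mdm2, Sesn2, Phlda3 and Eda2r had no pair closer than 4 mismatches. The p53-responsive promoter of Mdm2 lies in its first intron and is outside the window used here, so these letters say nothing about it.

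Gene expression was given as FPKM, the number of sequenced fragments scaled by transcript length and by sequencing depth, so that levels of different genes can be set side by side. The depth was estimated from the step size of low values at 13350000 to 15850000 fragments per sample, at which 1 FPKM over a transcript of 1500 bases stands for 20 to 24 fragments. All 15 B-cell precursor markers were tested, and their summed level was 3710 to 5561 FPKM in the leukemic and 6790 to 8483 FPKM in the preleukemic samples, so the labelled cell type was present in both. The sums of T and NK cell markers (25.7 to 86.3 FPKM in leukemic and 26.8 to 33.5 FPKM in preleukemic samples) overlapped between the groups. So did those of plasma cell markers (444 to 949 and 780 to 1020 FPKM). Markers of red cell precursors, macrophages, neutrophils and platelets differed. The sum of 12 red cell precursor markers was 1180 to 2747 FPKM in leukemic and 194 to 578 FPKM in preleukemic samples, that of 12 macrophage markers was 169 to 390 and 39.0 to 90.5 FPKM, that of 10 neutrophil markers was 1420 to 1758 and 149 to 867 FPKM, and that of 6 platelet markers was 13.8 to 53.9 and 1.7 to 3.27 FPKM. In limma, 12 of 12 red cell precursor, 8 of 11 macrophage, 4 of 10 neutrophil and 4 of 4 platelet markers tested were called higher in the leukemic samples. Of all genes tested, 8.47% were called higher. The platelet markers reached the filter on low values only with their leukemic samples, so their count depends on the group where they are high. Among T and NK cell markers 0 of 9 and among plasma cell markers 1 of 4 were called higher. Of the B-cell precursor markers 4 of 15 were called lower, against 6.26% of all genes. Their median log2 fold change was -0.61, and 14 of 15 were below 0, against 52.1% of all genes tested. In 10 of 15 every leukemic sample was below every preleukemic sample, against 17.1% of all genes. Of the 14 cycling-cell markers 1 was called higher, Mki67 (limma, adjusted p = 0.0316), all 14 had a log2 fold change above 0 with a median of 0.60, and their sum was 1316 to 2293 FPKM in leukemic and 872 to 1496 FPKM in preleukemic samples. The part of these cells in the results below was not tested. In such bulk samples, fewer cells of a type and less RNA per cell cannot be told apart. Leukemic replicates 1 and 3 and preleukemic replicate 4 expressed the Y-linked gene Ddx3y at 24.9 to 28.6 FPKM, and the other 4 samples at 0.0325 FPKM or less. Sex, as read from this gene, was thus not balanced between the groups, and its part in the results was not tested.

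Over these 10 genes, the leukemic samples had less Mdm2 and Trp53inp1 mRNA than the preleukemic samples. No difference in Trp53 mRNA was detected (log2 fold change 0.10 with a standard error of 0.09). Of the 8 genes tested, 2 were called lower and 0 higher in the leukemic samples (limma, Benjamini-Hochberg adjusted p under 0.05 over 10541 genes), against a background of 14.7% of all genes called, 6.26% lower and 8.47% higher. At an unadjusted p under 0.05 there were 3 of 8, the third being Ccng1. In 3 of 8 genes every leukemic sample was below every preleukemic sample, which was so for 17.1% of all genes, and 32.0% of all genes did not overlap in either direction. The median log2 fold change (leukemic minus preleukemic, on the log2(FPKM + 1) scale) was -0.43 over the 8 genes and -0.02 over all genes tested. Over the 15 B-cell precursor markers it was -0.61, so a fall of this size was not particular to the 8 genes. Of the 8 genes 6 were below 0, as were 52.1% of all genes tested. Zmat3 is among these 6 and reached the filter on low values only with its preleukemic samples. Its place in these counts thus depends on the group where it is high. The 2 calls rest on a narrow margin, since the number of the 8 genes called was 0 when leukemic replicate 1 or 3, or preleukemic replicate 2, 3 or 4, was left out, 1 without preleukemic replicate 1, and 2 without leukemic replicate 2.

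**Figure D1:**
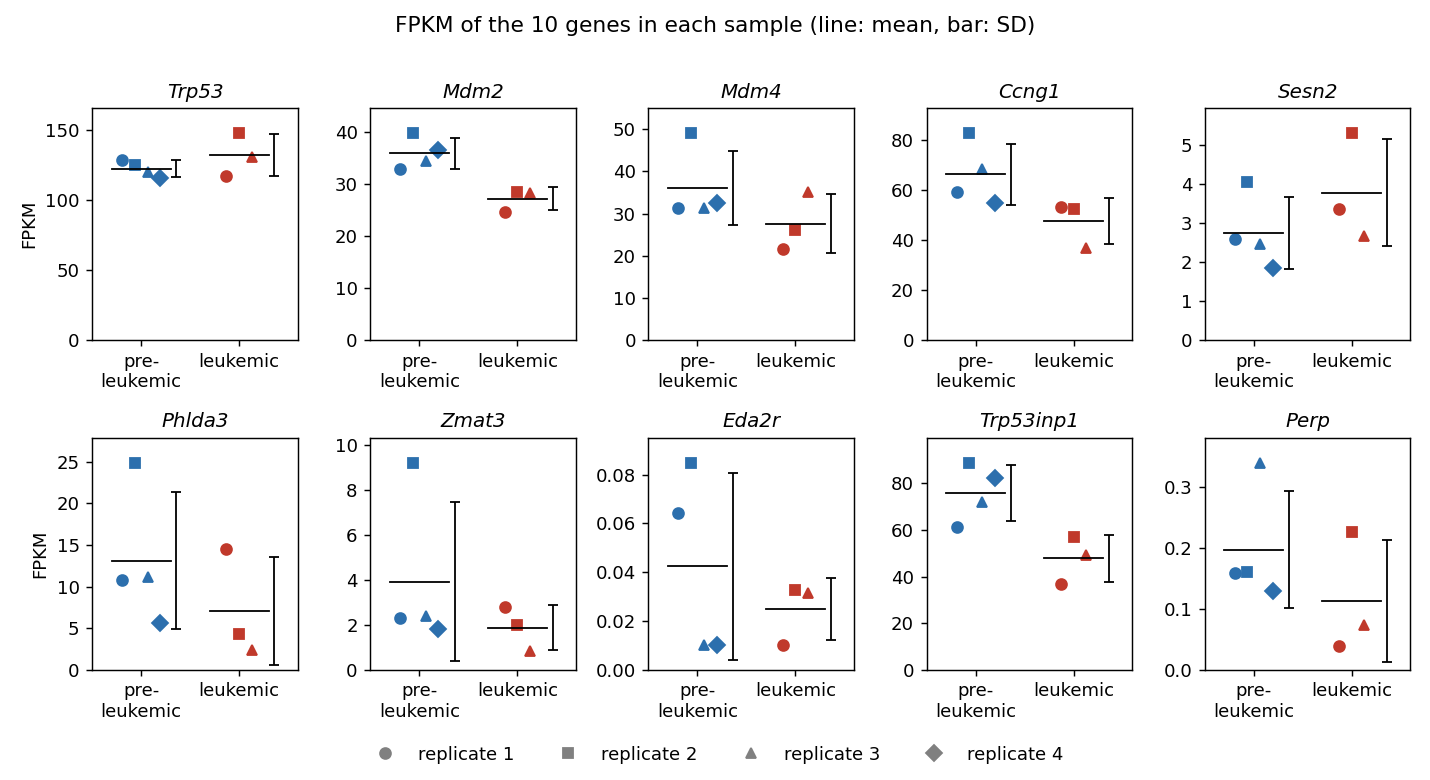
FPKM (y axes, linear from 0, separate scale per gene) of the 10 genes in the 4 preleukemic (blue) and 3 leukemic (red) samples. Each symbol is 1 sample, lines are group means and bars are SD; the groups do not overlap for Mdm2, Ccng1 and Trp53inp1, and preleukemic replicate 2 (blue square) stands highest of 7 for Mdm2, Mdm4, Ccng1, Phlda3, Zmat3, Eda2r and Trp53inp1.

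Trp53 (chr11:69580359-69591873, mm10) was the most abundant of the 10 transcripts in every sample and stood between the 97.1 and 97.8 percentile of all genes of its sample. Its level was 117, 148 and 131 FPKM in leukemic replicates 1 to 3 and 129, 125, 120 and 116 FPKM in preleukemic replicates 1 to 4. The groups overlapped, and leukemic replicate 2 was the highest sample. The means were 132 ± 15.2 FPKM (SD, n = 3) and 123 ± 5.75 FPKM (SD, n = 4), a log2 fold change of 0.10 with a standard error of 0.09 that did not pass the test (limma, adjusted p = 0.464). This small difference is -0.06 when each sample is rescaled to the same FPKM sum. The relatives of p53 were near the detection limit, with Trp63 at 0.132 FPKM or less and Trp73 at 0.0172 FPKM or less in all 7 samples.

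Mdm2 (chr10:117688875-117710758) was lower in the leukemic samples. Its level was 24.6, 28.5 and 28.3 FPKM in leukemic replicates 1 to 3 and 32.8, 39.7, 34.4 and 36.6 FPKM in preleukemic replicates 1 to 4. All 3 leukemic samples lay below all 4 preleukemic samples, with the gap between 28.5 and 32.8 FPKM. The preleukemic mean of 35.9 ± 2.99 FPKM (SD, n = 4) was 1.32 times the leukemic mean of 27.1 ± 2.2 FPKM (SD, n = 3), with a log2 fold change of -0.39 ± 0.10 (SE) that passed the test (limma, adjusted p = 0.0376). The direction held in all alternative fits, but the call was lost without leukemic replicate 1 (adjusted p = 0.0720) or 3 (0.0534), or without preleukemic replicate 1 (0.0536), 2 (0.0836), 3 (0.0873) or 4 (0.112), and was kept without leukemic replicate 2 (limma, adjusted p = 0.0487).

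Mdm4 (chr1:132986105-133030587) was at 21.5, 26.0 and 35.2 FPKM in the leukemic and 31.3, 49.1, 31.4 and 32.4 FPKM in the preleukemic samples. Leukemic replicate 3 lay within the preleukemic range, and preleukemic replicate 2 stood far above the other 3. The log2 fold change of -0.38 was close in size to that of Mdm2, but its standard error of 0.21 was larger and it did not pass the test (limma, adjusted p = 0.247). Without preleukemic replicate 2 it was -0.22. Mdm4 and Mdm2 had close levels and took adjacent places among the 10 genes in each sample, in either order.

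The balance between the mRNAs of Trp53 and of its inhibitors was followed by ratios of FPKM within a sample, which do not depend on how the samples were scaled. The Mdm2/Trp53 ratio was 0.209, 0.193 and 0.216 in leukemic replicates 1 to 3 and 0.255, 0.317, 0.287 and 0.316 in preleukemic replicates 1 to 4. The groups did not overlap, and the mean log2 ratio was -2.28 ± 0.08 (SD, n = 3) for the leukemic group and -1.77 ± 0.15 (SD, n = 4) for the preleukemic group, a difference of -0.51. The two-sided exact permutation p was 0.0286, the smallest that the 35 labelings of 3 against 4 samples allow, and 0.0857 after Benjamini-Hochberg adjustment over the 3 ratios compared. The Mdm4/Trp53 ratio was 0.183, 0.176 and 0.268 against 0.243, 0.392, 0.261 and 0.279, with overlapping groups and a log2 difference of -0.49 (exact permutation p = 0.143, adjusted 0.214). The Mdm2/Mdm4 ratio was 0.805 to 1.14 in leukemic and 0.810 to 1.13 in preleukemic samples. Its log2 difference of -0.01 (exact permutation p = 0.886) took the other sign when leukemic replicate 3 or preleukemic replicate 1, 3 or 4 was left out.

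**Figure D2:**
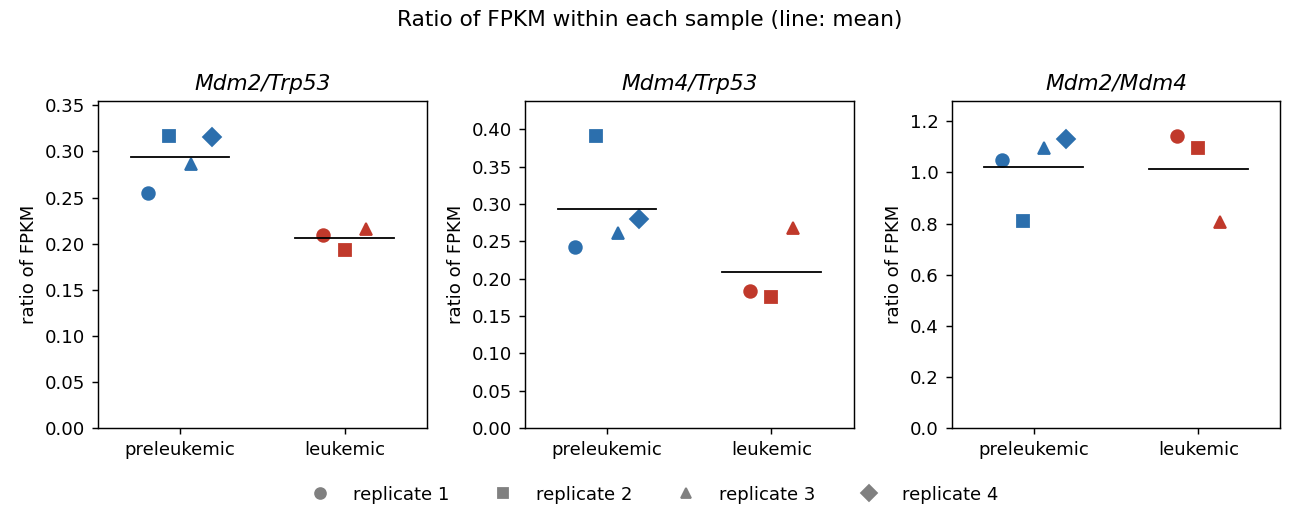
Ratio of FPKM within each sample (y axes, linear from 0, no unit) for Mdm2/Trp53, Mdm4/Trp53 and Mdm2/Mdm4 in the 4 preleukemic (blue) and 3 leukemic (red) samples, with lines at the group means. Mdm2/Trp53 is 0.193 to 0.216 in leukemic and 0.255 to 0.317 in preleukemic samples, while the other 2 ratios overlap between the groups.

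Among the target genes, Trp53inp1 and Ccng1 were the most abundant. Trp53inp1 (chr4:11156441-11174377) encodes a stress protein that promotes p53-dependent death and autophagy. It was at 37.0, 57.1 and 49.4 FPKM in leukemic replicates 1 to 3 and at 61.4, 88.9, 71.8 and 82.2 FPKM in preleukemic replicates 1 to 4. The groups did not overlap, although leukemic replicate 2 came close to preleukemic replicate 1. The preleukemic mean of 76.1 ± 12 FPKM (SD, n = 4) was 1.59 times the leukemic mean of 47.8 ± 10.2 FPKM (SD, n = 3), and the log2 fold change of -0.67 ± 0.18 (SE) passed the test (limma, adjusted p = 0.0468). The call was lost without leukemic replicate 1 (adjusted p = 0.0836) or 3 (0.0740) or preleukemic replicate 2 (0.107), 3 (0.104) or 4 (0.131), and also without the filter on low values (0.0651), with median-ratio size factors (0.0522) and without the intensity trend in the limma fit (0.0548).

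Ccng1 (chr11:40748552-40755286) encodes cyclin G1, which recruits a phosphatase to Mdm2 and is a classical p53 target. It was at 53.4, 52.7 and 37.1 FPKM in the leukemic and 59.3, 82.9, 68.5 and 55.1 FPKM in the preleukemic samples. The groups did not overlap, but leukemic replicate 1 and preleukemic replicate 4 were close to each other. The means were 47.7 ± 9.21 (SD, n = 3) and 66.4 ± 12.3 FPKM (SD, n = 4), and the log2 fold change of -0.47 ± 0.18 (SE) did not pass the test (limma, adjusted p = 0.115). It passed only after rescaling each sample to the same FPKM sum (limma, log2 fold change -0.64, adjusted p = 0.0400), which moved the median of all genes to -0.18.

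Phlda3, an inhibitor of Akt signaling, and Zmat3, an RNA-binding protein, showed the widest spread. Phlda3 (chr1:135766085-135769134) was at 14.5, 4.27 and 2.34 FPKM in the leukemic and 10.8, 24.9, 11.2 and 5.57 FPKM in the preleukemic samples. Leukemic replicate 1 exceeded all preleukemic samples but replicate 2. The log2 fold change was -0.95 with a standard error of 0.60 (limma, adjusted p = 0.301), and it ranged from -1.57 without leukemic replicate 1 to -0.47 without leukemic replicate 3. Zmat3 (chr3:32334794-32367438) was at 2.81, 1.99 and 0.817 FPKM in the leukemic and 2.30, 9.22, 2.37 and 1.81 FPKM in the preleukemic samples. Apart from preleukemic replicate 2, all values lay below 3 FPKM. The Zmat3 log2 fold change of -0.62 ± 0.49 (SE; limma, adjusted p = 0.391) was -0.20 without preleukemic replicate 2.

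Sesn2 (chr4:132492807-132510456), which encodes a sestrin that restrains mTORC1 and oxidative stress, was the only one of the 5 tested targets with a fold change above 0. It was at 3.35, 5.31 and 2.67 FPKM in the leukemic and 2.60, 4.05, 2.47 and 1.85 FPKM in the preleukemic samples. The groups overlapped and the log2 fold change of 0.35 ± 0.26 (SE) did not pass the test (limma, adjusted p = 0.369). It was 0.13 without leukemic replicate 2 and 0.52 without leukemic replicate 3. Eda2r (chrX:97333841-97377209), a receptor of the TNF receptor superfamily, was at 0.085 FPKM or less in all samples and at the table's floor of 0.01 FPKM in leukemic replicate 1 and preleukemic replicates 3 and 4. Perp (chr10:18845071-18857072), a membrane protein of desmosomes linked to p53-dependent death, was at 0.0383 to 0.227 FPKM in leukemic and 0.130 to 0.341 FPKM in preleukemic samples. A difference in either gene was not detectable at this depth.

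**Figure D3:**
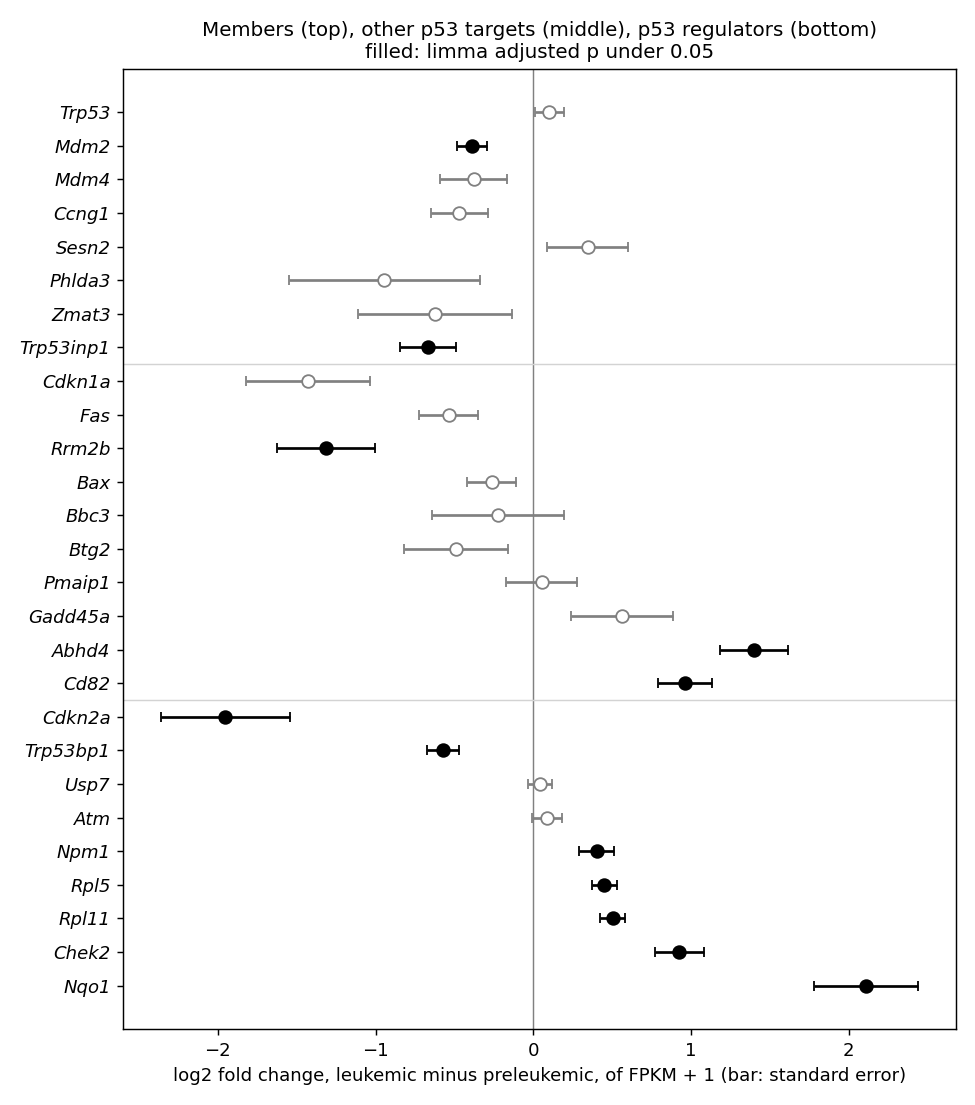
Log2 fold change (x axis, leukemic minus preleukemic, log2 of FPKM + 1, bars are standard errors) of the 8 tested genes (top), named other p53 targets (middle) and named p53 regulators (bottom), with filled points at a limma adjusted p under 0.05. Mdm2 at -0.39 and Trp53inp1 at -0.67 are filled in the top block, and Cdkn1a at -1.43 is not, although its fold change is larger.

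A second pattern ran through the preleukemic group. Preleukemic replicate 2 was the highest of the 4 preleukemic samples for 7 of the 8 tested genes and the highest of all 7 samples for 6 of 8, whereas over all genes tested it was the highest of the 4 in 27.0% and of the 7 in 15.1%. Compared with the mean of the other 3 preleukemic samples, its level was 4.27 times for Zmat3, 2.72 times for Phlda3, 1.76 times for Sesn2, 1.55 times for Mdm4, 1.36 times for Ccng1, 1.24 times for Trp53inp1 and 1.15 times for Mdm2. Trp53 itself was at 1.03 times and was the exception. Since this is 1 sample, these values are a description and carry no test. In the same sample all 14 cycling-cell markers were the lowest of the 4 preleukemic samples, against 32.8% of all genes, and their sum was 872 FPKM compared with 1188 to 1496 FPKM in the other 3. Mki67, which marks dividing cells, was at 68.1 FPKM there and at 89.1 to 108 FPKM in the others. The depth of that library, 14350000 fragments, and its marker sums for red cells (273 FPKM), macrophages (74.7 FPKM) and neutrophils (572 FPKM) lay within the range of the other preleukemic libraries. Whether the cycling markers have a part in the pattern of the p53 targets was not tested.

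**Figure D4:**
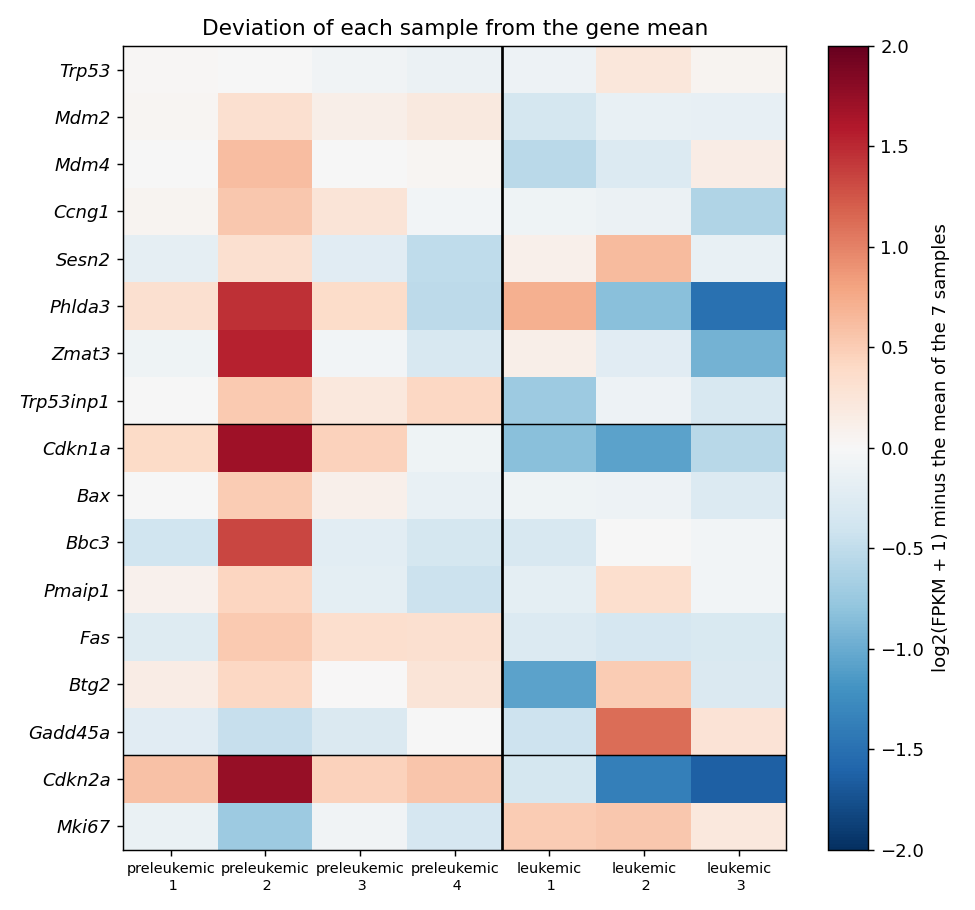
Deviation of log2(FPKM + 1) from the mean of the 7 samples (color, red above and blue below, scale from -2 to 2) for the 8 tested genes, 7 other p53 targets, Cdkn2a and Mki67 (rows) in each sample (columns). The column of preleukemic replicate 2 is red for Mdm4, Phlda3, Zmat3, Cdkn1a, Bbc3 and Cdkn2a and blue for Mki67.

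To see whether other p53 targets moved in the same way, a list of 48 further target genes was read from the same fit, with the BCL2 and CDK inhibitor families included. Of these, 39 were tested, and 1 was called lower and 2 higher (7.69%, against the background of 14.7%). Their median log2 fold change was -0.19, and 25 of 39 (64.1%) were below 0, against 52.1% of all genes tested. The 4 targets with a half-site pair did not move together. Cdkn1a (-1.43), Bax (-0.26) and Polk (-0.24) were below 0 and Rps27l (0.49) was above 0. None of them was called (limma, adjusted p from 0.0510 to 0.351), although Rps27l was called higher without leukemic replicate 3. Rrm2b, a ribonucleotide reductase subunit that supplies nucleotides for repair, fell by 1.31 on the log2 scale (limma, adjusted p = 0.0336), from 24.7 ± 4.67 (SD, n = 4) to 9.92 ± 4.5 FPKM (SD, n = 3). The lipid hydrolase Abhd4 rose from 5.16 ± 1.15 (SD, n = 4) to 15.4 ± 4.22 FPKM (SD, n = 3; log2 fold change 1.40, limma adjusted p = 0.0134), and the tetraspanin Cd82 rose from 41.7 ± 4.83 to 83.5 ± 19.9 FPKM (log2 fold change 0.96, limma adjusted p = 0.0171). The count of 3 became 5 without leukemic replicate 2, 2 without preleukemic replicate 2, 1 without preleukemic replicate 3 and 0 without preleukemic replicate 4, where 7 genes had an unadjusted p under 0.05 in limma. Rrm2b lost its call without leukemic replicate 3 or any 1 of the preleukemic samples (limma, adjusted p from 0.0515 to 0.103), Cd82 without preleukemic replicate 2, 3 or 4 (0.0522, 0.0503 and 0.0623) and Abhd4 without preleukemic replicate 4 (0.0545).

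Cdkn1a, the p21 inhibitor of cyclin-dependent kinases and the best known p53 target, was at 4.03, 3.27 and 5.12 FPKM in leukemic replicates 1 to 3 and at 10.6, 28.1, 11.3 and 7.41 FPKM in preleukemic replicates 1 to 4. The groups did not overlap, and the log2 fold change of -1.43 ± 0.39 (SE) lay just outside the threshold (limma, adjusted p = 0.0510). It was inside the threshold with a pseudocount of 0.1 (0.0454), with quantile normalization (0.0450), after rescaling to the same FPKM sum (0.0277) and without preleukemic replicate 2 (limma, log2 fold change -1.07, adjusted p = 0.0480). Cdkn1a lies on chromosome 17, where the 592 genes tested had a median of 0.35 on the log2 scale, the highest of the autosomes. The chromosomes of the 10 genes (1, 3, 4, 10, 11 and X) had medians from -0.07 to -0.01.

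The death genes of the p53 pathway did not pass the test with all 7 samples as deposited. Bax, a pore-forming member of the BCL2 family, was at 101, 98.9 and 88.1 FPKM in the leukemic and 106, 151, 114 and 95.9 FPKM in the preleukemic samples, with a log2 fold change of -0.26 (limma, adjusted p = 0.260). Bbc3 (Puma) was at 4.51 to 5.81 FPKM in the leukemic and 4.2, 16.4, 4.93 and 4.38 FPKM in the preleukemic samples, and its log2 fold change of -0.22 (limma, adjusted p = 0.732) became 0.19 without preleukemic replicate 2. Pmaip1 (Noxa) had a log2 fold change of 0.05 (limma, adjusted p = 0.886), with a sign that depended on the samples kept. The death receptor Fas was at 3.8 to 4.02 FPKM in the leukemic and 4.11 to 7.73 FPKM in the preleukemic samples without overlap, but its log2 fold change of -0.54 did not pass (limma, adjusted p = 0.0927), although it did without preleukemic replicate 1 (-0.70, 0.0236) and after rescaling to the same FPKM sum (-0.73, limma adjusted p = 0.0377). The growth arrest genes Btg2 and Gadd45a had log2 fold changes of -0.49 and 0.56 (limma, adjusted p = 0.323 and 0.255), and both values depended on single leukemic samples. Btg2 was at -0.097 without leukemic replicate 1 and at -0.89 without leukemic replicate 2, where it was called (limma, adjusted p = 0.0450). Gadd45a was at 0.17 without leukemic replicate 2 and at 0.94 without leukemic replicate 1, where it was called (limma, adjusted p = 0.0481). Preleukemic replicate 2 was the highest of the 4 preleukemic samples in 21 of the 39 tested targets (53.8%, against 27.0% of all genes) and the highest of 7 in 15 of 39, with 2.87 times the mean of the other 3 for Cdkn1a, 3.64 times for Bbc3 and 0.807 times for Gadd45a.

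**Figure D5:**
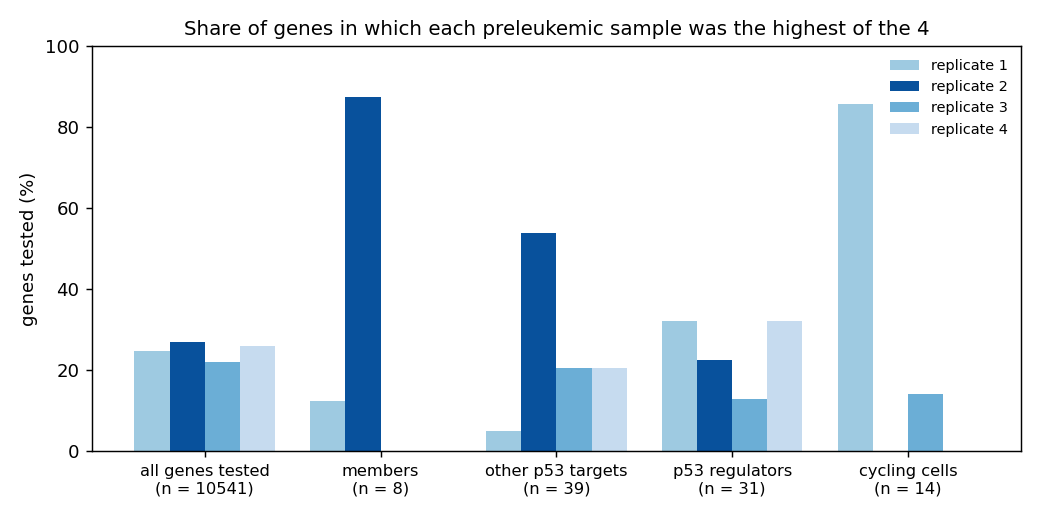
Share of tested genes (y axis, percent) in which each of the 4 preleukemic samples (shades of blue) was the highest of the 4, for all genes tested, the 8 tested genes of the report (members), other p53 targets, p53 regulators and cycling-cell markers. Replicate 2 is highest for 87.5% of the 8 genes and 53.8% of the other targets, against 27.0% of all genes and 0 of 14 cycling-cell markers.

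Upstream of p53 and Mdm2, 34 regulators were in the table and 31 were tested, of which 5 were called higher and 2 lower (22.6%, against the background of 14.7%). Their median log2 fold change was 0.15. Cdkn2a, whose p19Arf product binds Mdm2 and frees p53 and whose p16Ink4a product inhibits CDK4 and CDK6, was at 9.78, 4.32 and 3.40 FPKM in leukemic replicates 1 to 3 and at 19.5, 45.0, 17.7 and 19.2 FPKM in preleukemic replicates 1 to 4. The groups did not overlap, and Cdkn2a fell by 1.95 on the log2 scale (SE 0.41, limma, adjusted p = 0.0245). The table gives 1 value for the gene, so the products cannot be told apart, and the call was lost without leukemic replicate 3 (0.0568) or preleukemic replicate 2 (0.0503), 3 (0.0574) or 4 (limma, adjusted p = 0.0701). Trp53bp1, a repair protein that binds p53, fell from 14 ± 0.915 (SD, n = 4) to 9.09 ± 1.04 FPKM (SD, n = 3; log2 fold change -0.57, limma adjusted p = 0.0168), and its call was lost without preleukemic replicate 2 (0.0503), 3 (0.0532) or 4 (0.0627).

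The regulators that rose were the checkpoint kinase Chek2, the quinone reductase Nqo1, the ribosomal proteins Rpl11 and Rpl5, which bind Mdm2, and the nucleolar protein Npm1. Chek2 rose from 6.53 ± 1.43 (SD, n = 4) to 13.1 ± 1.03 FPKM (SD, n = 3; log2 fold change 0.93, limma adjusted p = 0.0152). Nqo1, which has been linked to p53 stability, was at 0.163 to 0.802 FPKM in the preleukemic and 2.74 to 7.86 FPKM in the leukemic samples (log2 fold change 2.11, limma adjusted p = 0.0134). Nqo1 reached the filter on low values through its leukemic samples alone, so its place among the regulators tested and called depends on the group where it is high. Rpl11, Rpl5 and Npm1 rose by 0.50, 0.45 and 0.40 on the log2 scale (limma, adjusted p = 0.0134, 0.0165 and 0.0493). These 3 have processed copies elsewhere in the genome that can share reads, so their values are uncertain. Rpl11 was at 0.17 and Npm1 at 0.07 on the log2 scale after quantile normalization, where neither passed (limma, adjusted p = 0.171 and 0.688), and Npm1 lost its call whichever single sample was left out (limma, adjusted p from 0.0530 to 0.133). The kinase Atm and the deubiquitinase Usp7 had log2 fold changes of 0.09 and 0.04 (limma, adjusted p = 0.546 and 0.725), and both were below 0 after rescaling each sample to the same FPKM sum. The count of 7 regulators became 9 without leukemic replicate 3, 4 without preleukemic replicate 2, 1 without preleukemic replicate 3 and 0 without preleukemic replicate 4, where 9 genes had an unadjusted p under 0.05 in limma. Chek2, Rpl11 and Rpl5 lost their calls without preleukemic replicate 3 or 4, and Nqo1 without preleukemic replicate 4, with limma adjusted p from 0.0515 to 0.0553.

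The genes whose pattern over the 7 samples was most like that of Trp53 and Mdm2 were found by Pearson's r of log2(FPKM + 1) over 8777 genes with a mean of at least 5 FPKM. For Trp53 these were Kcnn4, Afg3l2, Clcn3, Pip5k1b and Dyrk3, with r from 0.948 to 0.962. For Mdm2 they were Lrrc14, Trim14, Fam65b, A230046K03Rik and Tmem186, with r from 0.989 to 0.997. As an example, Lrrc14 was at 9.01, 10.2 and 9.88 FPKM in the leukemic and 11.3, 13.5, 12.1 and 12.7 FPKM in the preleukemic samples, in the same order over the preleukemic samples as Mdm2. These values describe 7 samples that fall into 2 groups and that share the scaling of each library. Of the 10 genes, Sesn2, Zmat3, Eda2r and Perp were below this level and were not compared, and the others were not among the genes most like Trp53 or Mdm2.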

How the data were processed

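RNA-seq had been performed on total RNA of sorted splenic BCP cells with a stranded mRNA library kit. The authors deposited 1 FPKM value per gene and sample for 24341 genes of mm10, with a floor of 0.01 FPKM. The submitters' processing notes name STAR 2.5.0b, Bowtie, bedtools 2.17.0, Cufflinks 2.2.1 and DESeq2, with no role or order given in the sources used here. Counts were not used here, so the count model of the study was replaced by limma (version 3.58.1, R 4.3.3) on log2(FPKM + 1) with an intensity trend. The 10541 genes whose FPKM over the 7 samples summed to 10 or more entered, no covariates were used, and Benjamini-Hochberg adjustment covered all of them. Fold changes on this scale understate those of low genes. The ratios were compared by exact permutation tests. Samples were grouped by the labels. The limma p-values set the difference between the groups against the spread between these samples. The permutation p-values set it against its values under all labelings.

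Depth was estimated from whole-fragment steps of low values in 1568 genes with 1 transcript, of which 77.8% to 82.7% per sample came out whole within 0.1 fragments; it is an estimate and entered no test. Promoter windows came from RefSeq. Scripts were checked on simulated data. The genes and lists were chosen with earlier results of these data known. The genes named are all 10 genes, fixed genes of each list, up to 8 called genes per list and direction, and the 5 genes most like Trp53 and like Mdm2. Mki67 and Ddx3y were named as markers. Alternatives covered the pseudocount (0.1), the filter, scaling, the variance model, the replicate block and leaving out samples. Python 3.11.15 was used for tables and plots.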

Additional observations from a re-analysis of the deposited data

Results flagged for a closer look

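For 27 genes and 3 ratios, the gap between the highest or the lowest of the 4 preleukemic samples and the nearest other sample was divided by the range. In 5 of these 30, all of them genes with a high sample, it exceeded Dixon's 95% critical value for 4 samples. Chance alone gives this for about 1 in 20 groups, and over all genes tested it occurred in 7.15% at either end and in 4.99% at the high end. Preleukemic replicate 2 was the high sample in 4 of them, with Mdm4 at 49.1 FPKM, Zmat3 at 9.22 FPKM, Bbc3 at 16.4 FPKM and Cdkn2a at 45.0 FPKM. Over all genes tested this library was the high outlier in 1.99%. The other was Nqo1 in preleukemic replicate 1, at 0.802 FPKM.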

How the results depend on the processing

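Of the 10541 genes, 1553 were called (893 higher, 660 lower). The count was 951 with a filter at an FPKM sum of 70 and 2917 after rescaling each sample to the same FPKM sum (686 higher, 2231 lower, with the median of all genes at -0.18). Quantile normalization gave 754 higher and 907 lower. Of the 8 genes, 2 were called, and 1 without the filter, with median-ratio size factors or without the intensity trend, and 3 after rescaling. Rescaling also raised the calls from 3 to 9 among the other p53 targets and from 7 to 11 among the regulators. Leaving out 1 sample at a time gave 149 to 1620 calls over all genes, 0 to 2 among the 8 genes, 0 to 5 among the other targets and 0 to 9 among the regulators. With preleukemic replicates 1 and 2 both left out, an alternative chosen after seeing the data, the counts were 213, 0, 0 and 1, with 2 of the 8 genes and 9 of the other targets at an unadjusted p under 0.05 in limma.

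The replicate numbers of the 2 groups do not pair the samples: deviations of same-numbered samples correlated at 0.03, 0.05 and -0.09. With the replicate block limma called 0 genes in all, and so 0 of the 8 genes, 0 other targets and 0 regulators, with 2429, 3, 8 and 12 at an unadjusted p under 0.05. Preleukemic replicate 4 has no leukemic sample of its number. The fold changes of the block fit are therefore the same as those without preleukemic replicate 4, and the 2 alternatives are not separate in this respect.

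Mdm2, Mdm4, Ccng1, Phlda3, Zmat3, Trp53inp1, Cdkn1a and Cdkn2a kept a fold change below 0 and Sesn2 one above 0 in every alternative computed for them. The sign of values near 0 turned. After rescaling, Trp53 was at -0.062, Atm at -0.071, Usp7 at -0.12 and Pmaip1 at -0.10. Usp7 was also at -0.021 with quantile normalization and ranged from -0.0081 (without leukemic replicate 3) to 0.10 when 1 sample was left out. Pmaip1 was at -0.081 with the replicate block and, as the same contrast, without preleukemic replicate 4. It ranged from -0.10 (without leukemic replicate 2) to 0.21 when 1 sample was left out, and was also below 0 without preleukemic replicate 3. Bbc3 ranged from -0.39 (without preleukemic replicate 1) to 0.19 (without preleukemic replicate 2) and was at 0.15 without preleukemic replicates 1 and 2. The log2 Mdm2/Mdm4 difference ranged from -0.12 to 0.15 when 1 sample was left out (0.15 without leukemic replicate 3, 0.0031, 0.02 and 0.04 without preleukemic replicate 1, 3 and 4). The log2 Mdm2/Trp53 difference ranged from -0.57 to -0.46 and the Mdm4/Trp53 difference from -0.69 to -0.35; with 6 samples the exact test cannot reach 0.05 (smallest p 0.0667 or 0.1). The cause of these shifts was not tested. Depth limits Eda2r and Perp, which stand at 0.085 and 0.341 FPKM or less. Over a transcript of 1500 bases, 0.1 FPKM stands for 2.0 to 2.4 fragments.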

Other observations

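Among the p53 targets below the filter on low values, Trp53cor1, the p53-induced long noncoding RNA next to Cdkn1a, was at 0.0894, 0.243 and 0.0635 FPKM in leukemic replicates 1 to 3 and at 0.511, 2.23, 0.840 and 0.803 FPKM in preleukemic replicates 1 to 4, without overlap and again highest in preleukemic replicate 2. It was singled out after its values were seen, and it was not tested. Epha2, a receptor tyrosine kinase gene of the same list, also chosen after its values were seen, was at 1.73, 10.1 and 8.24 FPKM in the leukemic and 6.14, 29.2, 12.3 and 12.5 FPKM in the preleukemic samples (limma, adjusted p = 0.239).

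Casp1, a caspase gene on the same list, ranged from 2.35 FPKM in leukemic replicate 3 to 32.3 FPKM in leukemic replicate 1, while the 4 preleukemic samples held 9.40 to 16.8 FPKM (limma, adjusted p = 0.920). Without leukemic replicate 3 it was called higher in the leukemic samples.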
